A study of Homo sapiens with 16 samples.

Results

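The 10 genes described here encode the core and accessory subunits of Polycomb repressive complex 2 (PRC2): EZH2, EED, SUZ12, EZH1, RBBP4, RBBP7, JARID2, MTF2, PHF19 and AEBP2. Each was taken as the transcript cluster of the array that carries exactly 1 gene symbol, that of the gene. All 10 were found, each with a single such cluster, among 18417 genes that have a cluster with 1 symbol. Total RNA was measured on 16 Affymetrix Human Gene 1.0 ST arrays in 8 groups of 2. HCC70 and MDA-MB-468 are established basal-like breast cancer lines, and each was stably infected with viral vectors. In HCC70, scrambled shRNA was measured in 2 pairs of arrays, titled shCont with the letter a or b and called set a and set b here. Set a served as the control of an shRNA against EZH2 (shEZH2), and set b as the control of an shRNA against EED (shEED). Also in HCC70, cells with the plKO Puro empty vector served as the control of cells with an EZH2 cDNA vector, labelled fip EZH2. In MDA-MB-468, cells with scrambled shRNA were the control of cells with shEZH2. All 8 groups shared the infection with 6 µg/ml polybrene, selection in 1 µg/ml puromycin from 48 h after infection, and seeding 24 h before extraction. The labels name no animal, donor or separate culture behind the duplicates, so every p-value measures the spread between these arrays, which may be technical. Nor do they say outright which scrambled set belongs to which knockdown; the order of the sample codes was used, and the other assignment was computed as well.

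PRC2 silences genes by adding methyl groups to a lysine on the tail of histone H3. EZH2, or its paralog EZH1, carries the catalytic domain, which is active only when joined to EED, which reads the mark already laid down, and to SUZ12, the scaffold. RBBP4 and RBBP7 are histone chaperones that PRC2 shares with other chromatin complexes, while MTF2 and PHF19, or JARID2 and AEBP2, define alternative forms of the complex and help it onto chromatin. EZH2 is known for its high level in basal-like breast cancer.

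The 2 subunits that were targeted are shown first by the stretch of DNA ahead of their transcription starts, because EZH2 and EED spanned the widest ranges of group means among the 10 genes. The sequences are the 250 bases before a start in RefSeq's promoter table for GRCh38.p14, read 5′ to 3′ on the gene's strand, and capitals mark matches to CCAAT or its reverse complement ATTGG. The EZH2 stretch lies on the minus strand at chr7:148884292-148884541, and the EED stretch on the plus strand at chr11:86244503-86244752.
EZH2: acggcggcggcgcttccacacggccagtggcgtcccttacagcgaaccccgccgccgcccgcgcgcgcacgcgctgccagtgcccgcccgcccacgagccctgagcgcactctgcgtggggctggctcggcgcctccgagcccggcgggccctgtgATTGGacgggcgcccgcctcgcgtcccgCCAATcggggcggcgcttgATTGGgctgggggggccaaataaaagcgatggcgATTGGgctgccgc
EED: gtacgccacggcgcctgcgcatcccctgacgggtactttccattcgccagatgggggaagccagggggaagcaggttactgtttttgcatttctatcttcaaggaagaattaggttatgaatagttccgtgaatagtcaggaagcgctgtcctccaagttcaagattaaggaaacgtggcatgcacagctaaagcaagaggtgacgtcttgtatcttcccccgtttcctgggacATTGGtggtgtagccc
The EZH2 stretch held 4 matches, at 94, 66, 47 and 13 bases before the start, and the EED stretch held 1, at 16 bases before the start. The table lists another EZH2 start, whose window at chr7:148883436-148883735 held 0 matches. CCAAT was searched on both strands in each 300-base window, 250 bases before to 50 after a start, and 7 of 10 genes had it in at least 1 window, against 39.7% of 27305 genes and 34.6% of 35116 windows in the table.

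The letters GCGGGAA, the core that E2F factors bind, or TTCCCGC on the other strand, were found in windows of 3 of the 10 genes: SUZ12, MTF2 and PHF19. This core was present for 7.82% of all genes and in 6.55% of all windows. The 3 matches are printed with 10 bases on either side, capitals marking the core. They lie at chr17:31936809-31936835 on the plus strand, chr1:93079278-93079304 on the plus strand and chr9:120877324-120877350 on the minus strand.
SUZ12: acccctaattTTCCCGCgaattcagtt
MTF2: ccggcagtccGCGGGAAaccaaaatgg
PHF19: tcaataattcGCGGGAAaacgcgaaaa
The SUZ12 core begins 188 bases and the PHF19 core 152 bases before the start, and the MTF2 core begins 5 bases after the start, inside the transcribed part. The table lists another PHF19 start, whose window at chr9:120868862-120869161 held 0 matches to this core. These matches describe the letters only.

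Values are log2 signals, so a difference of 1 is a doubling. Array medians over 33297 clusters ran from 5.37 to 5.53, and duplicates correlated at 0.994 to 0.997. A cluster was tested where at least 2 of 16 arrays reached a log2 signal of 6, which 16175 clusters did. Of the basal-like markers with a cluster, all 6 (KRT5, KRT14, EGFR, VIM, LAMB3 and ITGB4) reached 6 on all 16 arrays. The hormone receptor genes ESR1 and PGR, the leukocyte genes PTPRC and CD3E, the fibroblast genes COL1A2, COL3A1 and PDGFRB and the endothelial genes PECAM1, CDH5 and VWF reached it on none. Some genes of the other-cell lists did reach 6 on all 16 arrays, namely FOXA1, GATA3, COL1A1 and CD68. In such bulk RNA, fewer cells with a transcript and less of it per cell cannot be told apart.

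All 10 subunit genes passed the filter, 9 of them with a log2 signal of at least 6 on 16 of 16 arrays. EZH1 was the exception, at 5.68 to 6.58 with 9 arrays at 6 or above, so its signal lay near the floor of the filter. Signals of different genes come from different probes and are not compared here. EZH2 spanned the widest range of group means, 1.80, followed by EED with 1.65 and JARID2 with 1.17. RBBP7 spanned the narrowest, 0.24, on a log2 signal of 10.61 to 10.93 over all arrays. The pooled spread within duplicates was 0.044 (SD) for EZH2, 0.062 for RBBP7 and 0.10 for EED.

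**Figure D1:**
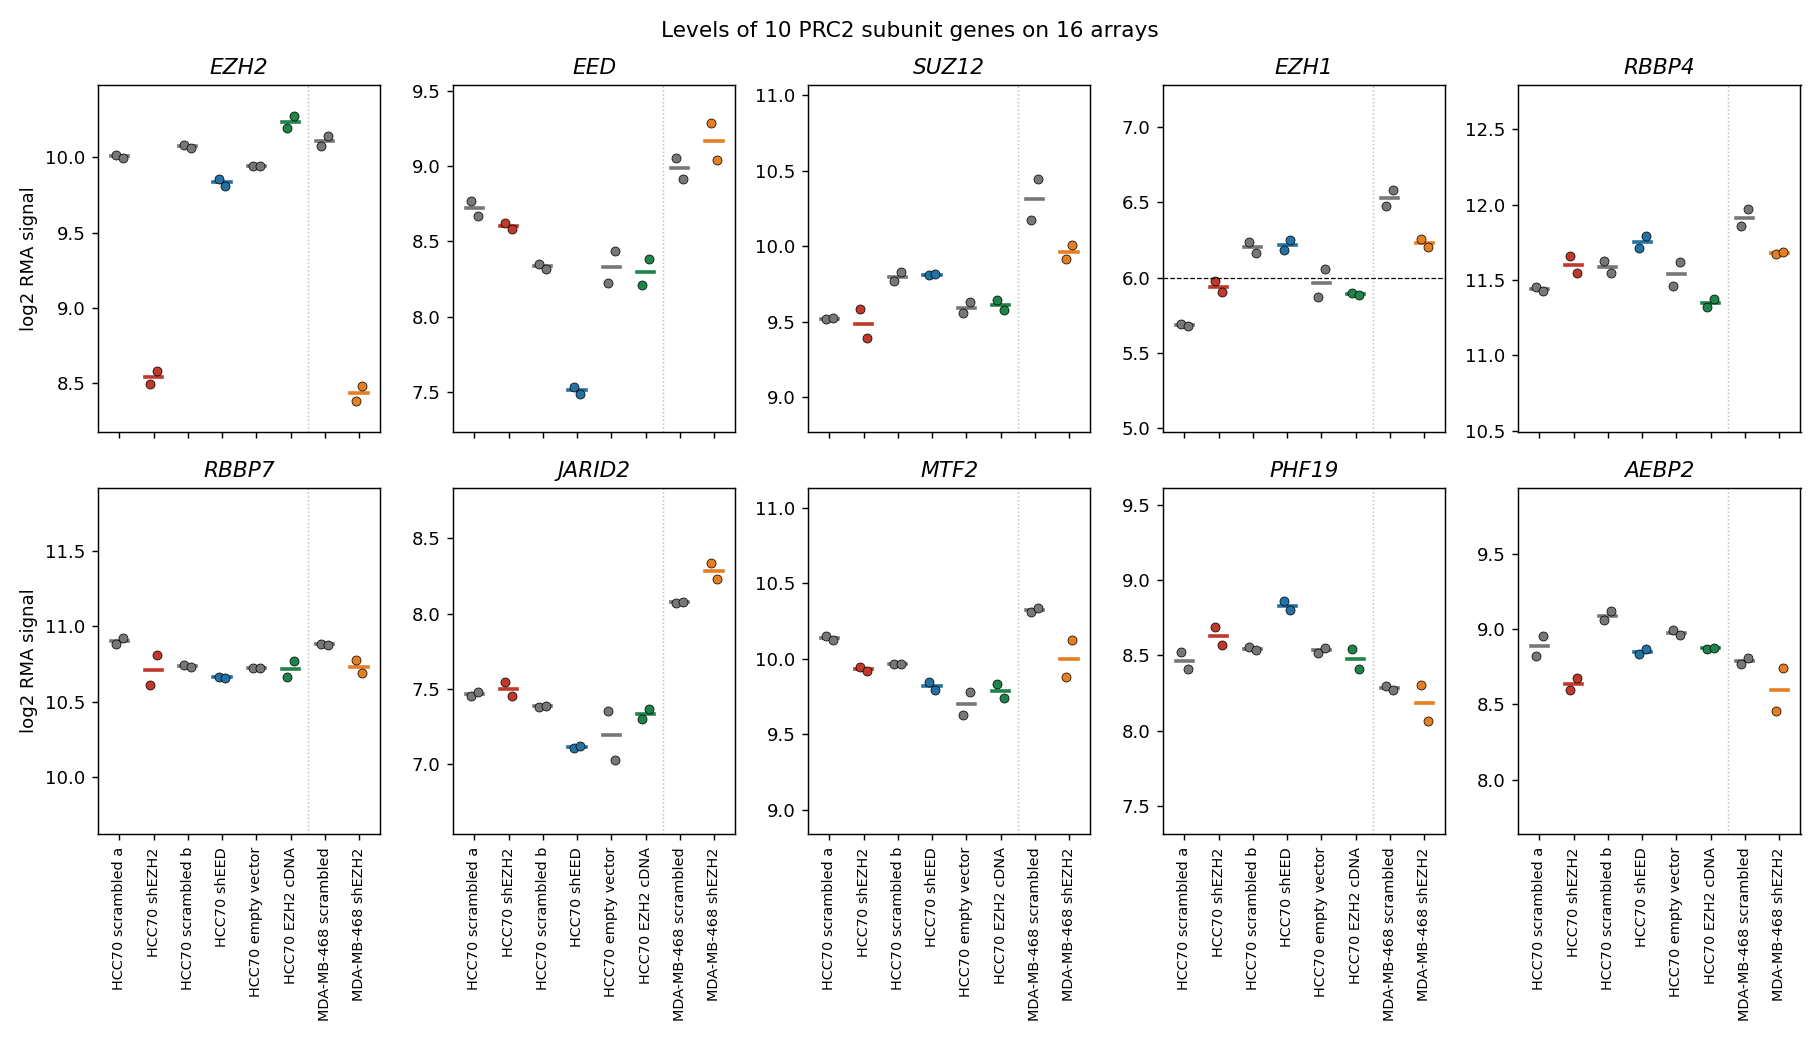
Log2 RMA signal of the 10 genes on 16 arrays, by group; points are arrays, bars are group means, every panel spans an equal log2 range, the dotted line separates the cell lines and the dashed line in the EZH1 panel marks log2 6. EZH2 stands near 10 in all groups but both shEZH2 groups, at 8.39 to 8.58, and EED is lowest in HCC70 shEED, at 7.49 and 7.54.

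The order of EZH2 levels ran from the HCC70 cDNA group (mean 10.23) through MDA-MB-468 scrambled (10.11), HCC70 scrambled set b (10.07), set a (10.01), the empty vector (9.94) and shEED (9.83) down to HCC70 shEZH2 (8.54) and MDA-MB-468 shEZH2 (8.43). Among these neighbours, only MDA-MB-468 scrambled and HCC70 set b overlapped in their arrays. EED ran from MDA-MB-468 shEZH2 (9.16) and scrambled (8.98) through HCC70 set a (8.72), shEZH2 (8.60), set b (8.33), the empty vector (8.33) and the cDNA group (8.30) to shEED (7.51). The arrays of set b, the empty vector and the cDNA group overlapped for EED, as did those of the MDA-MB-468 pair. JARID2 had both MDA-MB-468 groups on top, at 8.28 and 8.07, with every HCC70 group between 7.12 and 7.50.

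EZH2 knockdown in HCC70 lowered EZH2 itself and called none of the other 9 subunit genes. EZH2 was at 10.01 and 9.998 on the scrambled set a arrays and at 8.50 and 8.58 on the shEZH2 arrays. The groups lie far apart, and both treated arrays are below every array of the other HCC70 groups. EZH2 fell by 1.47 ± 0.071 (SE) on the log2 scale, 2.76-fold (limma, adjusted p = 3.35e-07). Of 16175 clusters, 11.4% were called in this comparison at an adjusted p under 0.05, so 1 call among 10 genes, that of the target, is near this background. Of the 6 basal-like markers tested, 1 was higher and 1 lower, and their part in these changes was not tested. Over all clusters, 685 were called without set a replicate 2, against 1837 with it.

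The other 9 genes changed by -0.26 to 0.26 in HCC70 with shEZH2. AEBP2, the accessory subunit that travels with JARID2, was at 8.82 and 8.96 with set a and at 8.60 and 8.67 with shEZH2. The groups did not overlap, and the difference was -0.26 ± 0.093 (limma, adjusted p = 0.103). EZH1, the alternative catalytic subunit, was at 5.69 and 5.68 with set a and 5.98 and 5.90 with shEZH2, below a log2 signal of 6 on all 4 arrays. Its difference was 0.26 ± 0.080 (limma, adjusted p = 0.0618). At an unadjusted p under 0.05, 1 of the 10 genes was higher (EZH1) and 4 were lower (EZH2, RBBP7, MTF2 and AEBP2). Here and below, the share of all clusters at that unadjusted threshold was not computed, so such counts have no background beside them. RBBP7 passed the threshold without shEZH2 replicate 2 (-0.29, adjusted p = 0.0408). For the core partners, the 95% interval of the difference, unadjusted, was -0.35 to 0.11 for EED and -0.24 to 0.18 for SUZ12.

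EZH2 knockdown in MDA-MB-468 lowered EZH2 and, with small changes that single arrays decide, SUZ12, EZH1 and MTF2. EZH2 was at 10.07 and 10.14 on the scrambled arrays and at 8.39 and 8.48 on the shEZH2 arrays. It fell by 1.67 ± 0.071 on the log2 scale, 3.19-fold (limma, adjusted p = 2.56e-07). Here 0 subunit genes were called higher and 4 lower, against 8.3% of all clusters called, 442 higher and 901 lower. Of the 6 basal-like markers tested, 1 was higher and 0 were lower, and their part in these changes was not tested. With arrays centred on the median, 2 subunit genes were called lower and the split of all calls was 226 higher of 1201. With quantile normalization applied once more, 2 subunit genes were lower as well, and the split of all calls was 480 higher of 1136. Without scrambled replicate 2, 210 clusters were called in all, and EZH2 alone of the 10 genes.

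SUZ12 was at 10.17 and 10.45 on the MDA-MB-468 scrambled arrays and at 9.92 and 10.01 with shEZH2, with no overlap. It fell by 0.35 ± 0.097 on the log2 scale, 1.27-fold (limma, adjusted p = 0.0469). The call ended without scrambled replicate 2, where the change was -0.21, and without shEZH2 replicate 1 (-0.31) or replicate 2 (-0.39). It also ended with the replicate number as a block. EZH1 was at 6.48 and 6.58 with scrambled shRNA and 6.26 and 6.20 with shEZH2, and fell by 0.30 ± 0.080 (limma, adjusted p = 0.0430). This call ended without any 1 of the 4 arrays, at -0.35 and -0.25 without scrambled replicate 1 and 2 and at -0.32 and -0.27 without shEZH2 replicate 1 and 2. MTF2, a subunit that binds CpG-rich DNA, was at 10.31 and 10.34 with scrambled shRNA and 9.88 and 10.12 with shEZH2. It fell by 0.33 ± 0.088 on the log2 scale (limma, adjusted p = 0.0430), a call that ended without scrambled replicate 1 (-0.34) or 2 (-0.31) and without shEZH2 replicate 1, where the change was -0.20.

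The remaining 6 genes of MDA-MB-468 were not called. RBBP4, at 11.86 and 11.97 with scrambled shRNA and 11.67 and 11.69 with shEZH2, differed by -0.23 ± 0.081 (limma, adjusted p = 0.0944). JARID2, which recruits the complex, was at 8.07 and 8.08 with scrambled shRNA and 8.34 and 8.23 with shEZH2. Its groups did not overlap, and the difference was 0.21 ± 0.096 (limma, adjusted p = 0.194). EED overlapped between the groups, at 9.05 and 8.91 against 9.29 and 9.04. AEBP2 differed by -0.19, RBBP7 by -0.15 and PHF19 by -0.098, none past the threshold, though AEBP2 passed it without shEZH2 replicate 2 (-0.34, adjusted p = 0.0441).

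**Figure D2:**
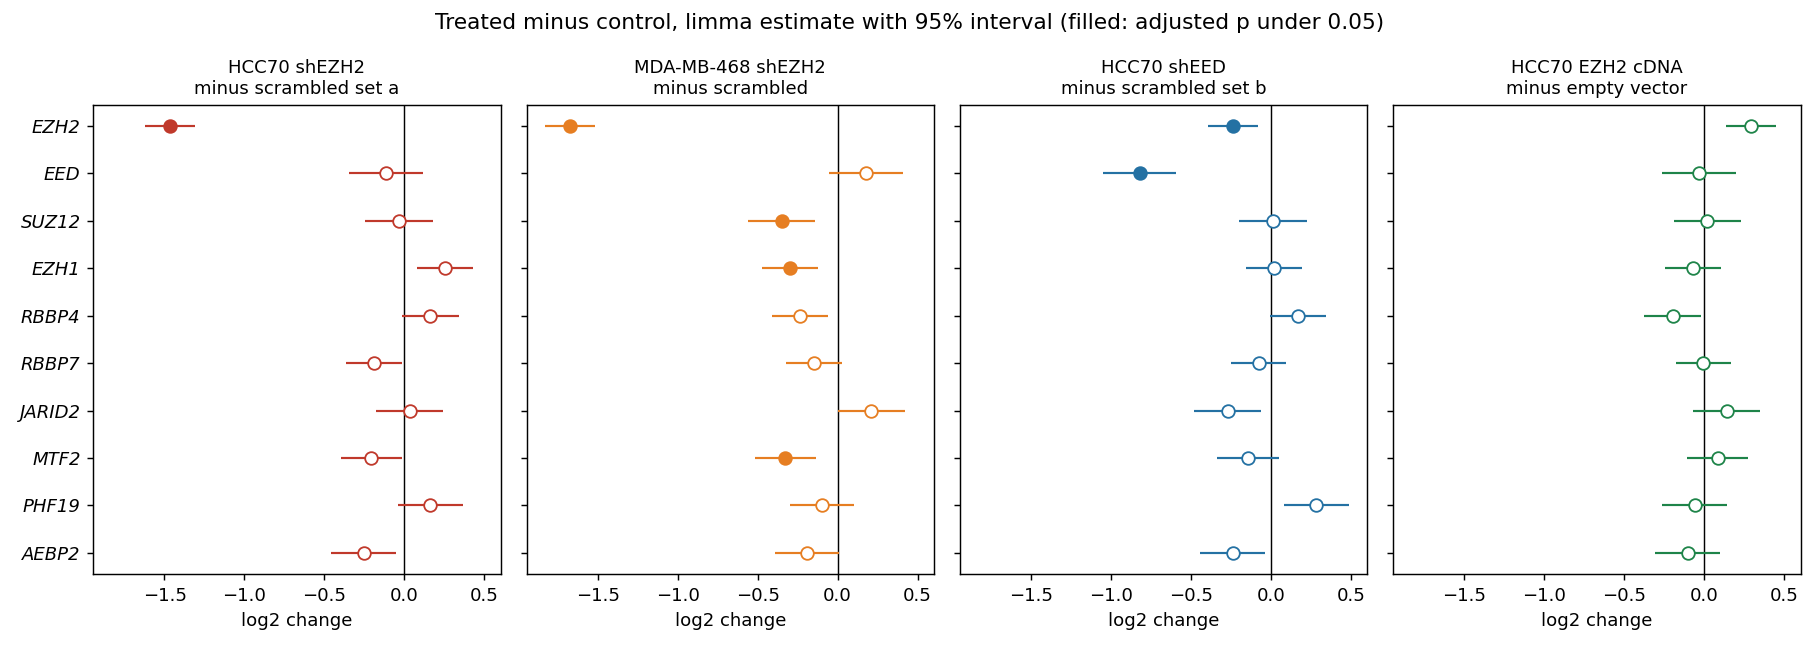
Log2 change of the 10 genes in each treated group minus its control, limma estimate with 95% interval (unadjusted), filled where the adjusted p is under 0.05. EZH2 lies at -1.47 and -1.67 with shEZH2, EED at -0.82 with shEED, and no gene is filled in the cDNA panel.

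The difference between the lines was tested as the change with shEZH2 in HCC70 minus that in MDA-MB-468; 13.2% of all clusters were called. The fall of EZH2 differed by 0.21 ± 0.10 (95% interval -0.011 to 0.43; limma, adjusted p = 0.189), less than the threshold asks. EZH1 and RBBP4 were the 2 subunit genes called, both in the higher direction. For EZH1 the difference was 0.55 ± 0.11 (limma, adjusted p = 0.0101), made of 0.26 in HCC70 and -0.30 in MDA-MB-468. With set b as the HCC70 control it was 0.037 (adjusted p = 0.867), and with both sets 0.30 (adjusted p = 0.0889). For RBBP4 it was 0.40 ± 0.11 (limma, adjusted p = 0.0413), made of 0.16 and -0.23. The RBBP4 call ended with set b (0.25, adjusted p = 0.161) and both sets (0.32, adjusted p = 0.0671), with no floor (adjusted p = 0.0765) and with arrays centred on the median (0.44, adjusted p = 0.0744). It also ended in 6 of 8 fits that each left out 1 array, with values from 0.34 to 0.45 over the 8. Those arrays were set a replicates 1 (0.41) and 2 (0.38), HCC70 shEZH2 replicate 1 (0.34), MDA-MB-468 scrambled replicate 2 (0.34) and MDA-MB-468 shEZH2 replicates 1 (0.39) and 2 (0.40). For SUZ12 the difference of 0.32 ± 0.14 missed the threshold (limma, adjusted p = 0.147) and passed it without MDA-MB-468 scrambled replicate 1 (0.45, adjusted p = 0.0395). Of the 4 tested markers of other cell types (FOXA1, GATA3, COL1A1 and CD68), CD68 was called in this contrast, at 0.46, and its part in these differences was not tested.

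EED knockdown in HCC70 lowered EED and, by a small change whose call ended when any 1 array was left out, EZH2. EED was at 8.35 and 8.31 on the scrambled set b arrays and at 7.54 and 7.49 on the shEED arrays, the lowest of all 16 arrays. It fell by 0.82 ± 0.11 on the log2 scale, 1.77-fold (limma, adjusted p = 0.000347). Against set a, whose arrays were higher in EED at 8.77 and 8.67, the change of EED was -1.21. EZH2 was at 10.08 and 10.06 with set b and at 9.86 and 9.81 with shEED, with no overlap. It fell by 0.24 ± 0.071 on the log2 scale, 1.18-fold (limma, adjusted p = 0.0456). That call ended without set b replicate 1 (-0.22) or 2 (-0.25), without shEED replicate 1 (-0.26) or 2 (-0.21), and against set a (-0.17, adjusted p = 0.0785). It also ended with no floor (limma, adjusted p = 0.0876) and with arrays centred on the median (-0.24, adjusted p = 0.0799). The call held with a floor of log2 7, quantile normalization once more, only clusters of 1 symbol, or the replicate number as a block. It also held with only the 4 arrays compared (limma, adjusted p = 0.0310) and against both sets (-0.20, adjusted p = 0.0280). In this comparison 14.2% of all clusters were called, beside 0 subunit genes higher and 2 lower, the target among them, so the count is near this background. Without any 1 of the 4 arrays, 1012 to 1119 clusters were called, against 2290 with all. Among the 4 tested markers of other cell types, FOXA1 was lower by -0.45 with shEED. Of the 6 basal-like markers tested, 0 were higher and 3 lower. The part of these markers in the changes was not tested.

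Of the other subunits, PHF19, which binds methylated histone H3 through its Tudor domain, came nearest to a call with shEED. It was at 8.55 and 8.54 with set b and at 8.86 and 8.80 with shEED, and these are its highest values on any array. The difference was 0.29 ± 0.092 (limma, adjusted p = 0.0617), and it passed the threshold against set a (0.37, adjusted p = 0.00917) and against both sets (0.33, adjusted p = 0.0102). It also passed with the replicate number as a block. With a floor of log2 7, quantile normalization once more, only clusters of 1 symbol or only the 4 arrays compared, 1 subunit gene was called higher. In that order, 1059, 1020, 1130 and 2443 of all clusters were called higher. Without any 1 of the 4 arrays, PHF19 differed by 0.25 to 0.32. JARID2 was at 7.38 and 7.39 with set b and 7.11 and 7.12 with shEED. The groups lie apart by -0.27 ± 0.096 (limma, adjusted p = 0.0873), and by -0.35 against set a (adjusted p = 0.0137). AEBP2 differed by -0.24 and RBBP4 by 0.17 without a call. The scaffold SUZ12 was at 9.77 and 9.83 with set b and 9.81 on both shEED arrays, a difference of 0.013 with a 95% interval of -0.20 to 0.23. EZH1 differed by 0.017 from set b and by 0.53 from set a (adjusted p = 0.000376).

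Between the knockdowns in HCC70, the change with shEED minus that with shEZH2 was 1.23 ± 0.10 for EZH2 (limma, adjusted p = 2.65e-05) and -0.71 ± 0.15 for EED (limma, adjusted p = 0.0157). These are the targeted genes, and each stood lower where it was targeted. Of all clusters 6.31% were called, and 2 of the 10 genes. The EED call ended without set a replicate 2 (-0.65), set b replicates 1 (-0.69) or 2 (-0.73) and shEED replicates 1 (-0.73) or 2 (-0.68). Where both scrambled sets served as a joint control, the contrast is shEED arrays against shEZH2 arrays directly, with 32% of all clusters and 5 of the 10 genes called. In that form SUZ12 was higher with shEED by 0.32 (limma, adjusted p = 0.0241) and EZH1 by 0.28 (adjusted p = 0.0205), while JARID2 was lower by -0.39 (adjusted p = 0.00984). The array values lie apart for each: SUZ12 at 9.81 on both shEED arrays against 9.58 and 9.39, JARID2 at 7.11 and 7.12 against 7.55 and 7.45. This form subtracts no control, and set a minus set b was -0.28 for SUZ12, without a call, and -0.52 for EZH1. With each knockdown against its assigned set, none of these genes was called. The differences were then 0.046 for SUZ12, -0.24 for EZH1 and -0.30 for JARID2 (limma, adjusted p = 0.887, 0.250 and 0.223).

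The EZH2 cDNA vector in HCC70 gave the highest EZH2 values of all arrays, 10.20 and 10.27, against 9.94 on both empty vector arrays. The groups did not overlap, and the difference was 0.29 ± 0.071, 1.23-fold, with a 95% interval of 0.14 to 0.45 (unadjusted). It missed the threshold over all clusters (limma, adjusted p = 0.0961), where 0.977% were called. By the limma test 0 of the 10 subunit genes were called, and at an unadjusted p under 0.05 EZH2 was higher and RBBP4 lower. No share of all clusters at that unadjusted threshold was computed. RBBP4 was at 11.46 and 11.62 with the empty vector and 11.32 and 11.37 with the cDNA, a difference of -0.20 ± 0.081 (limma, adjusted p = 0.413). The other 8 genes differed by -0.10 to 0.14. Whether the cluster's probes lie in the part that the cDNA vector carries was not tested. The labels name different vectors for control and treated cells, plKO Puro and fip EZH2. A difference of vector and the cDNA therefore cannot be told apart in this comparison.

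Between the 2 scrambled sets of HCC70, EED and EZH1 of these 10 genes were called, a share near that of all clusters. EED was higher in set a than in set b by 0.38 ± 0.11 (limma, adjusted p = 0.0219), a call that ended without set a replicate 1 (0.33) or 2 (0.44) and without set b replicate 1 (0.40) or 2 (0.37). EZH1 was lower in set a by -0.52 ± 0.080 (limma, adjusted p = 0.00098), at 5.69 and 5.68 against 6.24 and 6.16. SUZ12, at 9.52 on both set a arrays and 9.77 and 9.83 in set b, differed by -0.28 ± 0.097 (limma, adjusted p = 0.0588). EZH2 differed by -0.065, with a 95% interval of -0.22 to 0.090. Of all clusters 22.7% were called between the sets, 1198 higher and 2479 lower in set a, and with arrays centred on the median 684 of 3349 were higher. Markers moved with the sets too: VIM was lower in set a by -1.41 ± 0.093 (limma, adjusted p = 2.90e-06), KRT14 higher by 0.74, KRT5 by 0.26 and CD68 by 0.72. Of the 6 basal-like markers tested, 2 were higher and 1 lower in set a, and the part of these differences in the values of the subunit genes was not tested.

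Against the other set, the HCC70 changes of several subunit genes moved. With set b as control of shEZH2, 26.7% of all clusters were called and 4 of the 10 genes, all lower: EZH2 by -1.53, SUZ12 by -0.31 (limma, adjusted p = 0.0336), AEBP2 by -0.45 (adjusted p = 0.00387) and EZH1 by -0.26 (adjusted p = 0.0318). The sign of EZH1 is the opposite of that against set a. With set a as control of shEED, 36.7% of all clusters were called. There 4 of the 10 genes were higher (SUZ12, EZH1, RBBP4 and PHF19) and 4 lower (EED, RBBP7, JARID2 and MTF2). The falls of EZH2 with shEZH2 and of EED with shEED passed the threshold against either set.

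**Figure D3:**
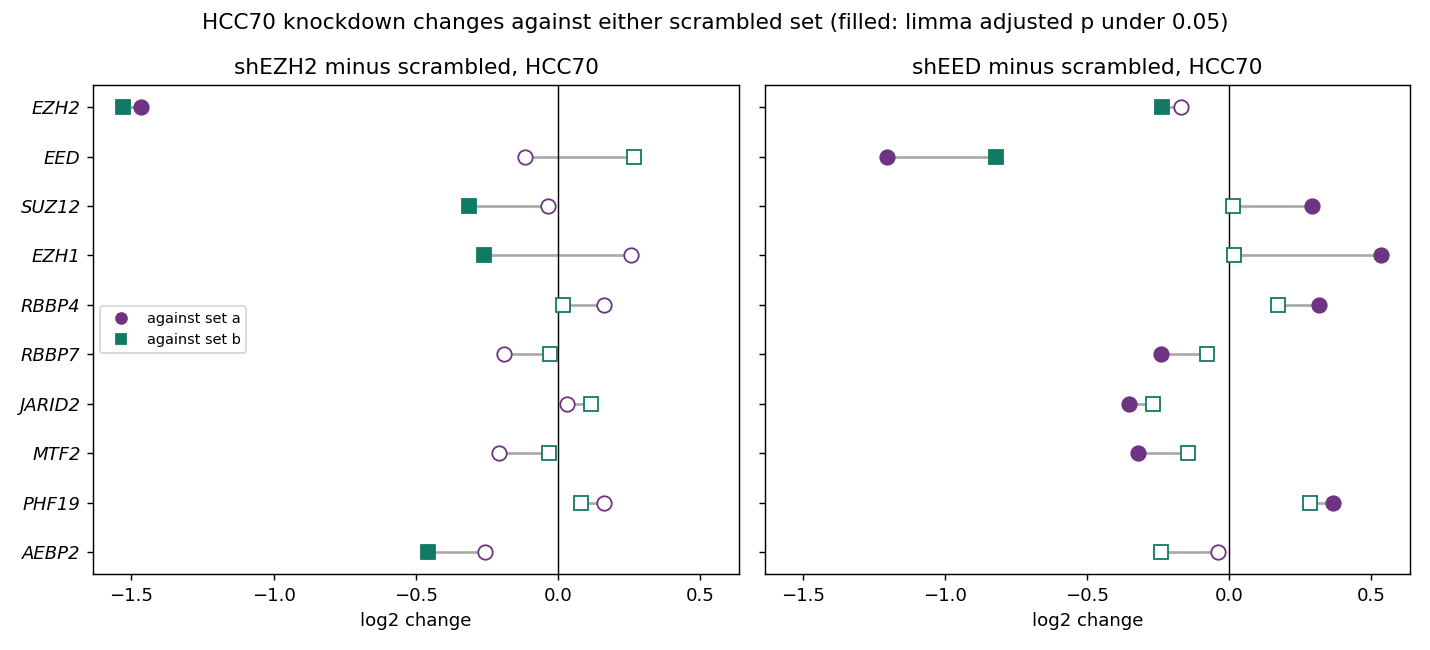
Log2 change of the 10 genes with shEZH2 and shEED in HCC70 against scrambled set a (circles) and set b (squares), joined by lines and filled where the adjusted p is under 0.05. EZH1 with shEZH2 moves from 0.26 against set a to -0.26 against set b, while EZH2 stays at -1.47 and -1.53.

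The empty vector arrays of HCC70 were compared with the mean of both scrambled sets, and 10.9% of all clusters were called. MTF2 was the single subunit gene called, at 9.63 and 9.78 with the empty vector against 10.15, 10.13, 9.97 and 9.96 with scrambled shRNA. It was lower by -0.35 ± 0.076 (limma, adjusted p = 0.0146). The call ended without empty vector replicate 1 (-0.28) and against set b alone (-0.26, adjusted p = 0.177). EZH2 differed by -0.098 and EED by -0.20, neither past the threshold. Against set a alone EED was lower by -0.39 (adjusted p = 0.0189) and EZH1 higher by 0.28 (adjusted p = 0.0255), and against set b alone they differed by -0.0045 and -0.24 without a call. JARID2 differed by -0.23 and passed it without empty vector replicate 1 (-0.39, adjusted p = 0.0216).

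Between the lines in scrambled controls, SUZ12, JARID2, EZH1, EED, RBBP4 and MTF2 stood lower in HCC70 than in MDA-MB-468, while EZH2 did not differ past the threshold. Called were 8 of the 10 genes, near the 69.2% of all clusters. Of the 10 genes 6 were lower and 2 higher in HCC70, and of all clusters 37.1% were lower and 32.1% higher. SUZ12 was at 9.52 to 9.83 on the 4 HCC70 scrambled arrays and at 10.17 and 10.45 in MDA-MB-468, a difference of -0.65 ± 0.084 (limma, adjusted p = 2.34e-05). JARID2 was at 7.38 to 7.48 against 8.07 and 8.08, a difference of -0.65 ± 0.083 (limma, adjusted p = 2.33e-05). EZH1 differed by -0.58, EED by -0.46, RBBP4 by -0.40 and MTF2 by -0.27, and the MTF2 call ended with set a as the single HCC70 control (-0.19, adjusted p = 0.0785). With set a or set b alone, EED differed by -0.27 (adjusted p = 0.0410) or -0.65 and EZH1 by -0.84 or -0.33 (adjusted p = 0.00378), all called. FOXA1, GATA3, COL1A1 and CD68 were also higher in HCC70, by 0.50 to 1.55, and their part in these differences was not tested. For each of SUZ12, JARID2, EZH1, EED, RBBP4, MTF2, PHF19 and AEBP2, the arrays did not overlap between the lines. The share of all clusters without overlap was not computed, so this does not set these genes apart.

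PHF19 was higher in HCC70 by 0.22 ± 0.080 (limma, adjusted p = 0.0261) and AEBP2 by 0.20 ± 0.080 (limma, adjusted p = 0.0426). The PHF19 call ended without set a replicate 1 (0.19), set b replicate 1 (0.22) or MDA-MB-468 scrambled replicates 1 (0.24) or 2 (0.21), and with arrays centred on the median (0.17). The AEBP2 call ended without set a replicate 2 (0.17), set b replicates 1 (0.22) or 2 (0.18) or MDA-MB-468 scrambled replicates 1 (0.18) or 2 (0.22), and with arrays centred on the median (0.15). EZH2 differed by -0.070 (95% interval -0.20 to 0.065) and RBBP7 by -0.059.

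**Figure D4:**
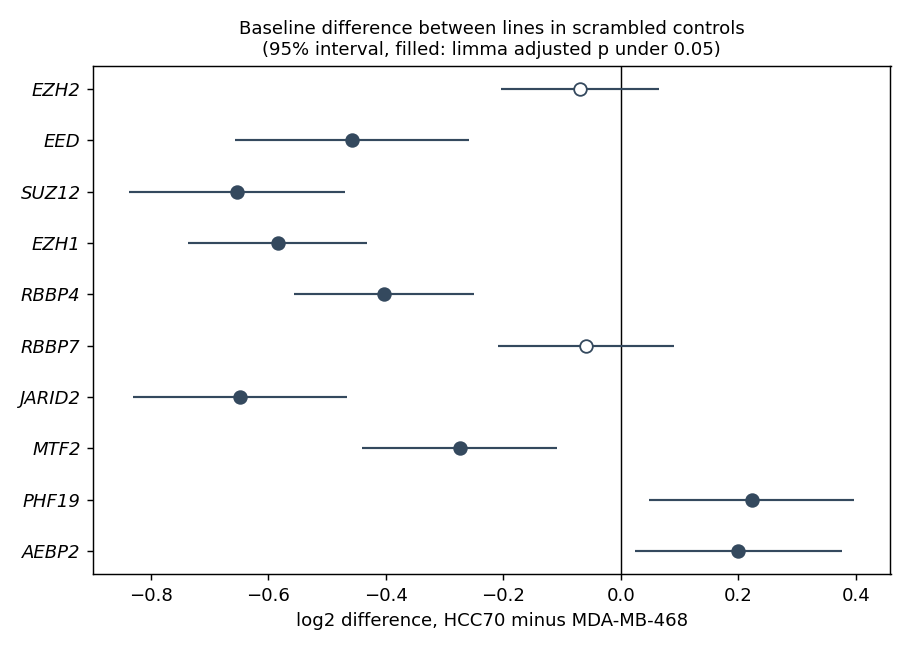
Log2 difference of the 10 genes between scrambled controls, HCC70 (both sets) minus MDA-MB-468, with 95% interval (unadjusted), filled where the adjusted p is under 0.05. SUZ12 and JARID2 lie at -0.65, PHF19 at 0.22, and EZH2 at -0.070 with an interval that spans 0.

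Over the 8 group means, the genes most like EZH2 were SYBU (r = 0.952), DSC2 (r = 0.925) and STYX (r = 0.924). Those most like EED were ACP6 (r = 0.983), MTCH1 (r = 0.970) and MID2 (r = 0.966). These correlations are a description over 8 points of 2 cell lines, picked as the highest among all tested clusters with 1 symbol.

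The related chromatin genes are given beside the share of all clusters called, 11.4% with shEZH2 in HCC70, 8.3% in MDA-MB-468 and 14.2% with shEED. Of 12 tested genes that work with PRC2 or remove its mark, ATRX, a chromatin remodeller, rose by 0.35 with shEZH2 in HCC70 (limma, adjusted p = 0.0307). In MDA-MB-468 the histone demethylase gene KDM6A fell by 0.45 (limma, adjusted p = 0.0246), and with shEED 0 of 12 were called by limma, with 2 at an unadjusted p under 0.05. The median change of the 12 was 0.11 in HCC70 with shEZH2, -0.14 in MDA-MB-468 and 0.066 with shEED, against 0.0083, -0.021 and 0.024 over all clusters. Between the 2 scrambled sets of HCC70, 22.7% of all clusters were called. There 3 of the 12 were lower and 0 higher in set a, with a median difference of -0.22, against -0.012 over all clusters. The HCC70 changes of these lists are given against the assigned set only. RBBP4 and RBBP7 also belong to histone deacetylase and chromatin assembly complexes, of which 24 other genes were tested. In MDA-MB-468 with shEZH2, 3 of these fell: ARID4B by 0.53, ING2 by 0.42 and the deacetylase gene HDAC1 by 0.33 (limma, adjusted p = 0.0158 for HDAC1). In HCC70, 0 of 24 were called by limma with shEZH2 (4 at an unadjusted p under 0.05) and 0 of 24 with shEED (2 at an unadjusted p under 0.05). Between the scrambled sets, 1 of the 24 was higher and 0 lower in set a. The share of all clusters at an unadjusted p under 0.05 was not computed.

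E2F factors and the RB family regulate genes of the cell cycle, EZH2 and EED being known targets, and 19 such genes were tested, to be read against those shares. In HCC70 with shEZH2, E2F2 fell by 0.70 (limma, adjusted p = 0.000553) and TFDP2, a dimer partner of E2F, rose by 0.80 (adjusted p = 0.000336). E2F2 fell by 0.35 in MDA-MB-468 (limma, adjusted p = 0.0413), as did LIN54 by 0.46. With shEED, E2F7 rose by 0.52, RBL1 by 0.37 and TFDP2 by 0.36, and 1 of the 19 fell. Between the scrambled sets of HCC70, 6 of the 19 were lower and 0 higher in set a, with a median difference of -0.23. Of 27 proliferation genes, 0 were called by limma in HCC70 with shEZH2 (2 at an unadjusted p under 0.05). In MDA-MB-468, where the share was 8.3%, 4 fell, among them MCM6 by 0.58, BUB1 by 0.57 and PLK1 by 0.38. With shEED, where 14.2% of all clusters were called, 7 of the 27 rose and 3 fell, with AURKA at 0.71, CDK1 at 0.47 and CCND1 at -0.84. Between the scrambled sets, 1 of the 27 was higher and 2 were lower in set a. With the EZH2 cDNA limma called 0 genes in each of these 4 lists, with 0 of 12, 1 of 19, 3 of 24 and 4 of 27 at an unadjusted p under 0.05. These unadjusted counts have no share of all clusters to be read against.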

How the data were processed

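The deposited table holds 1 log2 signal per transcript cluster and array, 33297 clusters by 16 arrays, made by the authors with RMA in Affymetrix Expression Console per the submitters' processing notes. RMA corrects background, normalizes between arrays and summarises probes, and tends to understate changes of dim clusters. No source used here gives the software versions or the genome build of the clusters, so no coordinates of the clusters are reported. Printed sequences, with their coordinates, come from RefSeq's promoter table for GRCh38.p14. Scan dates were not used, so batches could not be tested. An array gives no read depth, and the number of arrays limits the precision.

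Means of 8 groups were fitted over all 16 arrays with limma 3.58.1 in R 4.3.3, after a test on simulated data, with 8 residual degrees of freedom. P-values are two-sided and Benjamini-Hochberg adjusted over 16175 clusters that reached log2 6 on at least 2 arrays, and called means an adjusted p under 0.05. Alternatives were another floor, centring, quantile normalization, a replicate block, other control sets and arrays left out. All 10 genes are named, with up to 3 called genes per related list and comparison, and for EZH2 and EED the 3 clusters most like each. The members and lists were chosen with earlier results of these data known.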

Additional observations from a re-analysis of the deposited data

Results flagged for a closer look

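The change with shEZH2 differed between HCC70 and MDA-MB-468 for 2 subunit genes by the limma contrast of the changes. EZH1 had a difference of 0.554 ± 0.114 (adjusted p = 0.0101) and RBBP4 of 0.397 ± 0.114 (adjusted p = 0.0413). EZH1 was near the floor of log2 6, and neither difference passed the threshold with scrambled set b as the HCC70 control.

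The change differed between shEED and shEZH2 in HCC70 for the 2 targeted genes. EZH2 had a difference of 1.23 ± 0.10 (shEED minus shEZH2; adjusted p = 2.65e-05) and EED of -0.706 ± 0.149 (adjusted p = 0.0157).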

How the results depend on the processing

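Over the alternatives, 974 of 1133 changes of single subunit genes kept their direction and side of the threshold, 67 lost a call and 36 gained one with the direction kept, 53 changed sign without being called in either fit, and 3 turned direction with a call in at least 1 of the fits. Those 3 are all EZH1: -0.261 with shEZH2 against set b, and, for shEED minus shEZH2, 0.796 with the sets exchanged and 0.278 with both sets. The limits are 2 arrays a group of unstated origin, no batch information, and EZH1 near the floor of log2 6. The alternative of another cluster of a gene was not run, because no subunit gene has several.

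The choice of the scrambled set moved the HCC70 counts as follows. With set b for shEZH2, 4325 clusters and 4 subunit genes lower were called, and with both sets 3048 and 2. With set a for shEED, 5940 clusters, 4 subunit genes higher and 4 lower were called, and with both sets 4465, 3 and 4. The line difference then had 0 subunit genes higher with set b and 0 with both sets (limma; 3 at an unadjusted p under 0.05 in the fit as reported). For shEED minus shEZH2, exchanged sets gave 6843 clusters, 4 higher and 2 lower, and both sets 5169, 3 and 2. The empty vector against set a alone gave 4022 clusters and against set b alone 307.

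With a floor of log2 7, subunit genes higher were 1 for shEED and 1 for the line difference. With no floor, 848 clusters and 1 subunit gene lower were called for MDA-MB-468, 1 lower for shEED, 88 clusters for the cDNA and 1 higher for the line difference. With arrays centred on the median, lower calls were 2 for MDA-MB-468 and 1 for shEED, higher calls 0 for set a minus set b and 1 for the line difference, and clusters called 88 for the cDNA, 677 for shEED minus shEZH2 and 1154 for the empty vector. With quantile normalization once more, lower calls were 2 for MDA-MB-468 and higher calls 1 for shEED. With only clusters of 1 symbol, 1 was higher for shEED and 2 lower for set a minus set b. With only the 4 arrays compared, clusters called were 276 for shEZH2 in HCC70, 21 for MDA-MB-468 (1 subunit gene lower), 4439 for shEED (1 higher and 4 lower), 0 for the cDNA and 6269 for set a minus set b (2 lower).

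The replicate numbers are shared between groups in the labels, but same-numbered arrays did not deviate together (r from -0.023 to 0.077). With the number as a block, 1965 clusters were called for shEZH2 in HCC70, 1500 for MDA-MB-468, 2483 for shEED and 145 for the cDNA, against 1837, 1343, 2290 and 158 without it. With the block, PHF19 with shEED gained a call (1 higher, adjusted p = 0.0321) and SUZ12 in MDA-MB-468 lost its own (adjusted p = 0.0502).

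Leaving out 1 array at a time gave 685 to 1968 clusters for shEZH2 in HCC70 (subunit genes lower 1 to 2, EZH2 -1.51 to -1.42), 210 to 1514 for MDA-MB-468 (lower 1 to 3, EZH2 -1.72 to -1.63), 1012 to 1119 for shEED (lower 1 to 1, EED -0.85 to -0.80) and 14 to 97 for the cDNA (EZH2 0.25 to 0.33). It gave 1603 to 2036 for set a minus set b (higher 0 to 0, lower 1 to 1), 904 to 2617 for the line difference (higher 1 to 3), 459 to 1508 for shEED minus shEZH2 (lower 0 to 1), 8988 to 10600 for HCC70 minus MDA-MB-468 and 836 to 1077 for the empty vector.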
